A study of Arabidopsis thaliana with 24 samples.

Results

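The genes described here are 121 Arabidopsis thaliana genes known only by a locus code. Their transcript level in germinating seeds was higher with uniconazole than with solvent. Averaged over both media, it differed little between the pkl mutant and the wild type, while the difference in 1 medium could be larger. The genes were chosen by their measured values, from 11930 probe sets that report 1 gene without a symbol. On group means of log2(signal + 16), the mean of the uniconazole effects in pkl and in wild type had to be at least 0.7. The mean of the pkl effects with uniconazole and with solvent had to lie within 0.4 of 0, and the highest of the 4 group means had to reach a signal of 110. Each of the 121 genes was represented by 1 probe set, a group of short oligonucleotides that reports 1 transcript or a few related ones.

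Seeds of the pkl mutant and of the Columbia wild type germinated on agar medium under continuous light, and RNA was measured on Affymetrix ATH1 arrays. The 4 groups were pkl with 10 nM uniconazole, pkl with solvent, wild type with 10 nM uniconazole and wild type with solvent, each with 6 arrays that the submitters call biological replicates. All 4 groups, the solvent groups included, received 0.01% methanol, in which the uniconazole was dissolved. The labels give neither the pkl allele nor the age of the seeds at harvest, so a difference in stage of germination between groups was not separated from the effect of a treatment or of the mutation. Transcripts of PKL itself were not analysed here and give no check of the genotype labels. The median signal of an array lay between 310.2 and 371.4. ICL, the isocitrate lyase of the glyoxylate cycle that is active while a seedling lives on its oil reserves, had 36254 ± 2426 in pkl with uniconazole, 36352 ± 2606 in pkl with solvent, 37329 ± 4500 in wild type with uniconazole, against 39080 ± 3630 in wild type with solvent (SD, n = 6). BAN, a marker of the young seed coat, averaged 8.08 to 14.5 in the 4 groups, under the level of 54.9 that bounded 95% of the values of 27 probe sets for bacterial control transcripts.

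Gibberellins are plant hormones that promote germination. They bind the GID1 receptors, and the bound receptors mark DELLA proteins, which repress growth, for degradation through the F-box protein SLY1. Uniconazole is a triazole growth retardant that blocks an early cytochrome P450 step of gibberellin synthesis. PICKLE, the protein affected in pkl, is a CHD3-type chromatin remodelling factor that is needed to shut off embryonic traits during germination, and the mutant is known for seedlings that keep such traits, more often when gibberellin is short.

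Since the rule used the effects of uniconazole and of pkl, those values are a description and were not tested for the 121 genes. With uniconazole the median signal over the 121 genes was 577.5 for pkl and 496.4 for wild type, against 262.8 in pkl with solvent and 258.7 in wild type with solvent (medians over genes of group means). The uniconazole effect had a median of 1.12 in pkl (range 0.52 to 2.78) and of 0.85 in wild type (range 0.29 to 2.46), as log2 differences. Over all 22746 probe sets the medians were 0.02 in pkl and -0.02 in wild type. All 6 uniconazole arrays lay above all 6 solvent arrays for 104 of the 121 genes in pkl, which holds for 6.84% of all probe sets, and for 75 genes in wild type, against 4.04% of all probe sets. For 72 genes the arrays separated in both genotypes, and the share of all probe sets that do so was not computed. In the fit over all probe sets, 116 of the 121 were past an adjusted p of 0.05 and higher with uniconazole in pkl, against 11.4% of all probe sets, and 103 in wild type, against 9.07%. Because the rule used these contrasts, the counts describe the choice of genes. In whole seeds, more cells of a type and more RNA per cell cannot be told apart.

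Ordered by the mean of both uniconazole effects, 10 of the 121 genes reached 1.5, 54 reached 1 and the other 67 lay between 0.7 and 1. The gene with the largest mean effect was AT5G36160. In pkl its lowest, median and highest signals were 996, 1207 and 1309 with uniconazole, against 117, 152 and 218 with solvent. In wild type they were 677, 755 and 960 with uniconazole and 28.3, 169 and 236 with solvent. No array with uniconazole came near an array with solvent, and the mean was 7.32-fold higher with uniconazole in pkl and 4.87-fold higher in wild type (log2 changes 2.78 ± 0.26 and 2.34 ± 0.26, SE, n = 6 per group).

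AT1G17830 came next. Its lowest, median and highest signals in pkl were 785, 812 and 923 with uniconazole, against 132, 177 and 235 with solvent. In wild type it had 625, 704 and 810 with uniconazole and 95.1, 111 and 140 with solvent. The groups with and without uniconazole did not overlap, and the fold was 4.65 in pkl and 6.09 in wild type. This gene stood just inside the limit on the pkl effect, with a mean pkl effect of 0.39.

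AT5G47610 had 577, 716 and 831 in pkl with uniconazole (lowest, median, highest), against 112, 124 and 151 in pkl with solvent. The same transcript gave 621, 708 and 778 in wild type with uniconazole, against 170, 186 and 197 in wild type with solvent. The 2 uniconazole groups overlapped, while all pkl arrays with solvent lay under all wild-type arrays with solvent. Its fold was 5.62 in pkl and 3.82 in wild type.

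Brighter transcripts with large effects were AT4G16980, AT3G53040 and AT1G27030. AT4G16980 averaged 2638 ± 139 in pkl with uniconazole against 652 ± 30.5 in pkl with solvent, and 3300 ± 552 in wild type with uniconazole against 906 ± 201 in wild type with solvent. AT3G53040 averaged 2226 ± 1259 in pkl with uniconazole against 397 ± 85.4 with solvent, and 1690 ± 462 in wild type with uniconazole against 581 ± 94.7 with solvent. AT1G27030 averaged 1863 ± 323 in pkl with uniconazole against 610.2 ± 104 with solvent, and 1819 ± 191 in wild type with uniconazole against 655 ± 48.4 with solvent (SD, n = 6). For these 3 genes every array with uniconazole exceeded every array with solvent in the same genotype, although AT3G53040 ran from 1107 to 4456 among its 6 arrays of pkl with uniconazole.

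The plot of single arrays also shows 4 dim transcripts among the 12 genes with the largest effect, whose solvent signals were at or near the bacterial control level of 54.9. Where a solvent mean lay under that level, the fold is stated as a minimum. AT1G61930 averaged 106 ± 11.8 in pkl with uniconazole against 23.8 ± 17.6 with solvent, at least 1.93-fold higher, and 124 ± 15.3 in wild type with uniconazole against 33.1 ± 25.2 with solvent, at least 2.25-fold higher. AT4G26950 was at least 2.02-fold higher with uniconazole in pkl and at least 1.80-fold higher in wild type. AT1G09500 was at least 2.47-fold higher in pkl and at least 1.81-fold higher in wild type, but only 3 of its 6 wild-type arrays with uniconazole exceeded all wild-type arrays with solvent. AT5G44360 averaged 253 ± 34.9 in pkl with uniconazole against 60.2 ± 46.8 with solvent, and 119 ± 31.9 in wild type with uniconazole against 59.4 ± 18.2 with solvent. These 4 were not the only dim members. Of the 121 genes, 24 had both solvent means under 110, and 10 had a solvent mean at or under the bacterial control level, while 0 had a uniconazole mean there.

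**Figure D1:**
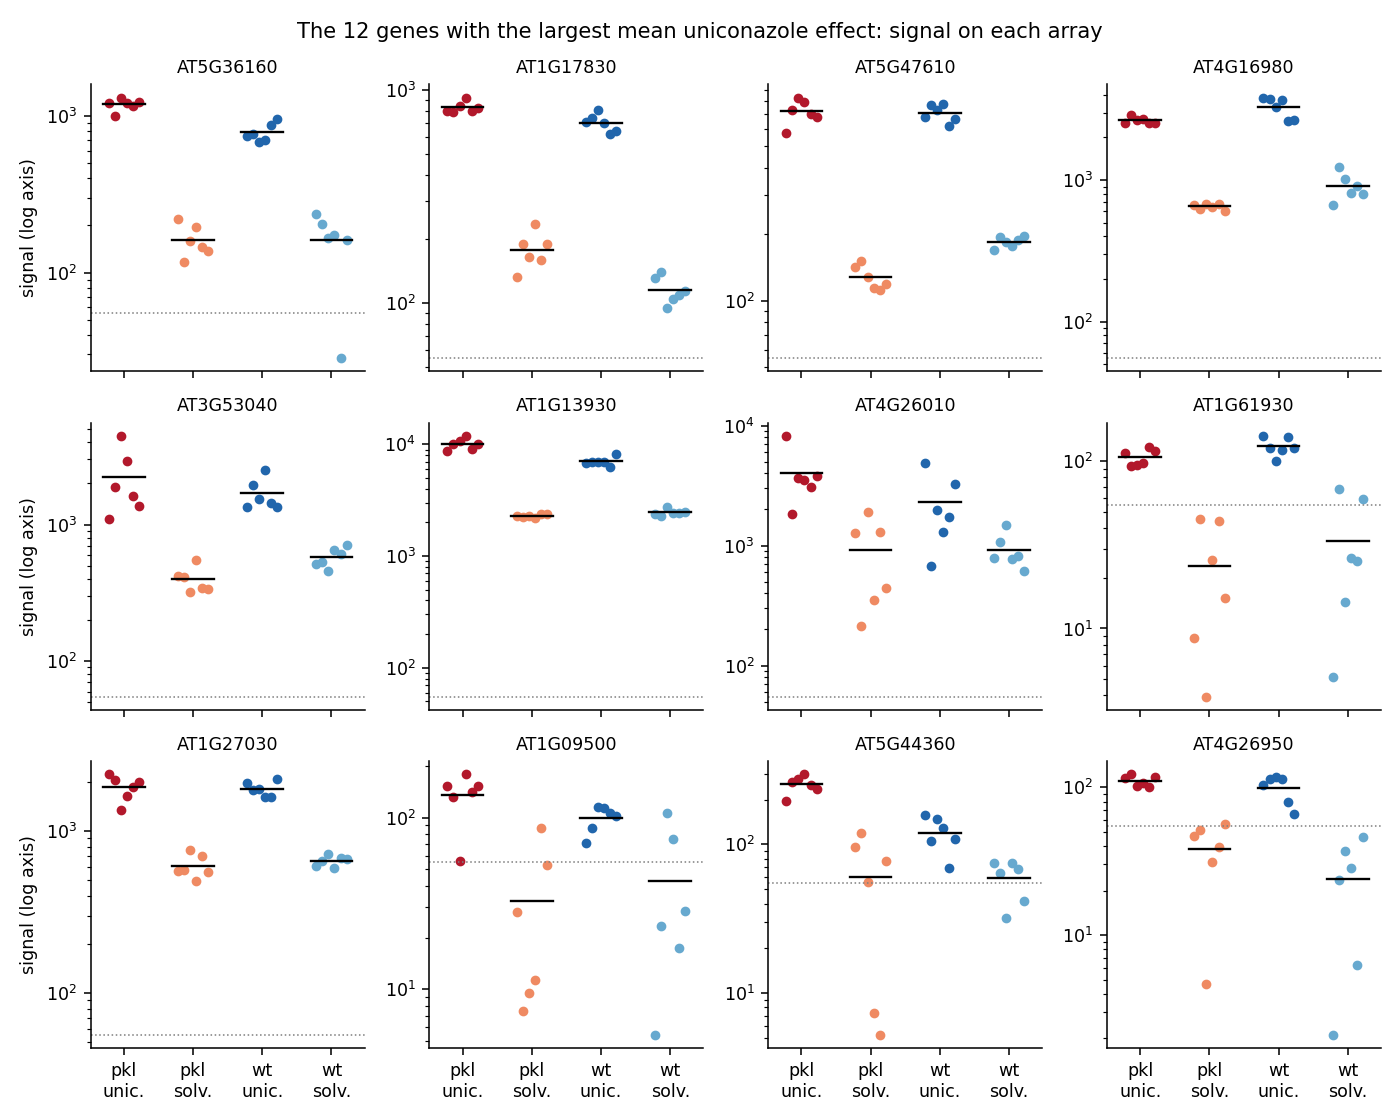
Signal (log axis) on each of the 24 arrays for the 12 genes with the largest mean uniconazole effect, with 6 arrays and the mean as a bar for pkl with uniconazole, pkl with solvent, wild type with uniconazole and wild type with solvent, from left to right in each panel. The dotted line is the bacterial control level of 54.9. AT5G36160 lies between 677 and 1309 with uniconazole and between 28.3 and 236 with solvent, while the arrays of AT4G26010 and AT1G09500 overlap between media in both genotypes and those of AT5G44360 in wild type.

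Effects of the brightest of the 121 transcripts varied. AT3G15670, the brightest, picked for its level after the values were seen, had 19243, 23929 and 25790 in pkl with uniconazole (lowest, median, highest), against 9496, 11320 and 13251 in pkl with solvent. In wild type its arrays lay at 14252, 19654 and 22525 with uniconazole and at 10811, 12864 and 13286 with solvent. The uniconazole and solvent arrays were apart in both genotypes, by 2.03-fold in pkl and 1.54-fold in wild type. AT3G54940, the next in level, was 2.33-fold higher with uniconazole in pkl and 1.65-fold higher in wild type. AT1G13930, the third, was 4.42-fold higher in pkl and 2.86-fold higher in wild type. Among the 17 genes with at least 1000 in wild type with solvent the median uniconazole effect was 1.02 in pkl and 0.77 in wild type, with 1.03 in pkl and 0.86 in wild type for the 54 genes between 200 and 1000, and 1.21 in pkl and 0.92 in wild type for the 50 genes under 200 (log2). The level that sets these bins also enters the wild-type effect.

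At the edge of the rule, AT4G32950, AT3G57880 and AT2G36145 had mean uniconazole effects of 0.701, 0.702 and 0.703 and were kept. AT1G80640, AT4G19390 and AT1G17090 had 0.699, 0.699 and 0.693 and were not. On the side of the pkl effect, AT3G21670 with -0.397 and AT1G17830 with 0.394 were kept, while AT2G42560 with 0.401 and AT1G33700 with 0.409 were not. AT2G42560 is the gene called LEA25 among the maturation markers below. Genes on either side of a limit differed by less than the standard error of any one effect. Varying the offset, the scaling or single arrays left between 83 and 116 of the 121 genes inside the rule.

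Among the 121 genes, 3 carry a family name in RefSeq's gene table. AT1G68570 is listed as NPF3.1 of the NRT1/PTR family, a membrane transporter known in Arabidopsis to carry gibberellin. Its lowest, median and highest signals were 270.0, 297 and 322 in pkl with uniconazole, against 121, 132 and 156 in pkl with solvent. In wild type they were 291, 396 and 522 with uniconazole and 118, 147 and 197 with solvent. The groups did not overlap, and the mean was 2.21-fold higher with uniconazole in pkl and 2.67-fold higher in wild type (log2 changes 1.06 ± 0.14 and 1.33 ± 0.14). AT3G21670, listed as NPF6.4, belongs to the same family of nitrate, peptide and hormone transporters. It averaged 1187 ± 267 in pkl with uniconazole against 446 ± 57.1 in pkl with solvent, and 1342 ± 229 in wild type with uniconazole against 685 ± 28.6 in wild type with solvent. Its solvent level was lower in pkl, by 0.61 on the log2 scale. AT2G35310, listed as REM23 of the reproductive meristem family of B3-type DNA-binding proteins, averaged 758 ± 46.7 in pkl with uniconazole against 409 ± 24.8 with solvent, and 617 ± 72.5 in wild type with uniconazole against 359 ± 72.6 with solvent. In all 3 genes every uniconazole array exceeded every solvent array of its genotype.

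Of 11 genes of the NRT1/PTR family that could be named on the array, these 2 were chosen by the rule and the other 9 were not. Apart from GTR1 and GTR2, the 9 carry a locus code only. Such genes are among the 9 because the rule, which used uniconazole effects, left them out. Nothing is therefore read from counts among the 9 beside the shares of all probe sets. In pkl, 3 of the 9 rose with uniconazole, AT1G59740 by 0.62, AT3G25260 by 0.53 and the glucosinolate transporter gene GTR1 by 0.31 (log2, limma adjusted p = 0.0067, 0.0252 and 0.0197), where 11.4% of all probe sets did. In pkl 0 of the 9 fell by limma's test, with 2 lower at an unadjusted p under 0.05, AT2G26690 with -0.75 and GTR2 with -0.27 (adjusted p = 0.105 and 0.149). In wild type 0 of the 9 passed the limma test, where 9.07% of all probe sets were called higher, with 1 at an unadjusted p under 0.05, and the effects of these 3 genes there were 0.18, 0.15 and 0.23. The difference between the uniconazole effects in pkl and in wild type passed limma's test in 0 of the 9, and in 0 before adjustment, so these calls do not show a difference between the genotypes.

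Gibberellin signalling genes with a symbol moved in both genotypes. Of a list of 30 gibberellin genes, 6 could be named on the array. The list was drawn up with earlier results of these data known, so its counts are not independent support. With uniconazole 4 of the 6 rose in pkl, where 11.4% of all probe sets did, 5 rose in wild type, where 9.07% did, and 0 fell in either by limma's test, before or after adjustment. The difference between the 2 uniconazole effects, which ran from -0.27 to 0.21 over the 6 genes, passed in 0 of them, also before adjustment. The receptor gene GID1A averaged 2328 ± 137 in pkl with uniconazole against 1006 ± 55.5 in pkl with solvent, and 1582 ± 67.3 in wild type with uniconazole against 753 ± 95.8 in wild type with solvent (SD, n = 6; limma adjusted p = 4.54e-13 and 8.31e-12). XERICO, which encodes a small RING-type protein linked to abscisic acid, averaged 2874 ± 166 in pkl with uniconazole against 889 ± 40.7 with solvent, and 3084 ± 466 in wild type with uniconazole against 877 ± 148 with solvent (limma adjusted p = 8.77e-14 and 2.44e-14). GID1B and SLY1 also rose in both genotypes, and SNE, a homologue of SLY1, rose in wild type by 0.63 (log2, limma adjusted p = 0.00608), with 0.35 in pkl (adjusted p = 0.12). GID1C had log2 differences of 0.09 in pkl and -0.12 in wild type and passed in neither. The median effect over the 6 genes was 0.91 in pkl and 0.85 in wild type. Over the 121 genes, which were chosen by these effects, it was 1.12 and 0.85, so the 2 sets are not compared.

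The comparison least bound by the rule is the difference between the 2 uniconazole effects, that in pkl minus that in wild type. With 6 arrays in each group, its error of estimation is unrelated to that of either mean effect used to choose the genes. It could therefore be tested gene by gene. Its values are not unrelated to the choice. Over the 121 genes the difference correlated with the mean uniconazole effect at 0.26 (Pearson) and 0.30 (Spearman). The signal minimum of 110 still bears on dim genes, since 7 of the 121 reached it only in pkl with uniconazole and 3 only in wild type with uniconazole. Of the 121 genes, 1 passed at an adjusted p of 0.05 over all probe sets, where 0.141% of all probe sets passed. That gene was AT1G13930. Its lowest, median and highest signals were 8783, 10040 and 11911 in pkl with uniconazole, against 2173, 2269 and 2399 in pkl with solvent. In wild type the values were 6312, 6982 and 8278 with uniconazole and 2291, 2436 and 2770 with solvent. Every pkl array with uniconazole lay above every wild-type array with uniconazole, whereas the solvent arrays of the 2 genotypes overlapped. The mean was 4.42-fold higher with uniconazole in pkl and 2.86-fold higher in wild type, and the log2 effects of 2.13 ± 0.07 and 1.51 ± 0.07 differed by 0.62 ± 0.09 (SE, n = 6 per group; limma adjusted p = 0.00211). Over 33 other settings its adjusted p lay between 3.97e-04 and 0.0177.

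**Figure D2:**
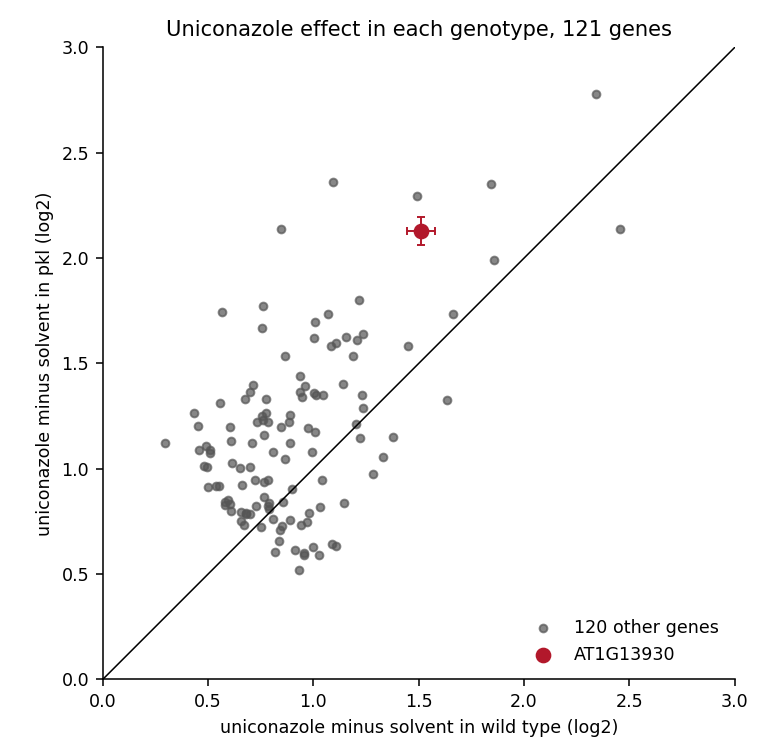
Uniconazole minus solvent in pkl (vertical axis) against uniconazole minus solvent in wild type (horizontal axis) for the 121 genes, as log2 differences, with the line of equal effects. AT1G13930 is marked in red with its standard errors at 2.13 in pkl and 1.51 in wild type. Above the line lie 93 of the 121 genes and below it 28.

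The remaining 120 genes did not pass this test, which at their spread does not show that the effects were equal. Before adjustment 37 of the 121 genes had a p under 0.05, 34 with the larger effect in pkl and 3 with the larger effect in wild type, where 7.68% of all probe sets had such a p. The difference was above 0 for 93 of the 121 genes and for 53.2% of all probe sets. Its median was 0.27 over the 121 genes, with quartiles of 0.02 and 0.50, and 0.02 over all probe sets (log2). The 111 genes with both uniconazole means of at least 110 had a median of 0.26, and 86 of them were above 0. The 90 genes whose 4 group means all reached 110 had a median of 0.23, and 69 of them were above 0. By level in wild type with solvent, the median difference was 0.23 for the 17 genes of at least 1000, 0.17 for the 54 genes between 200 and 1000, and 0.39 for the 50 genes under 200. These values describe the list, and no test of the list was made.

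**Figure D3:**
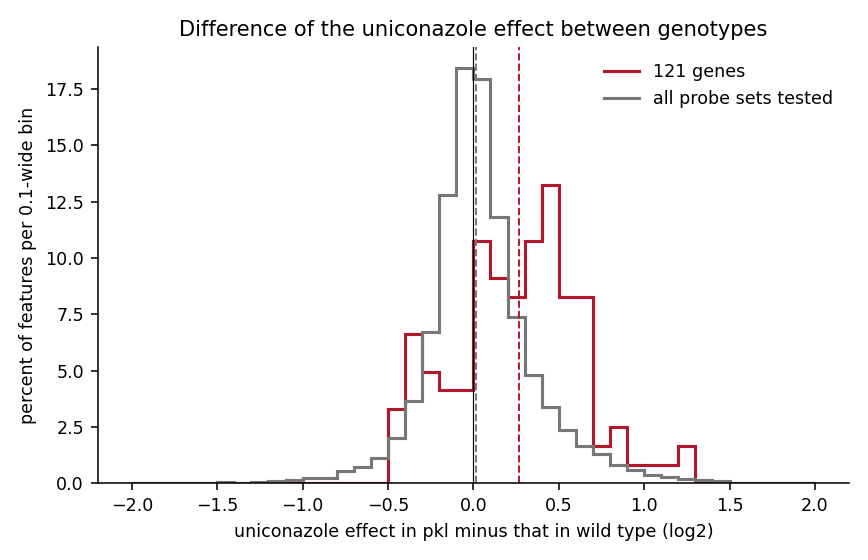
Distribution of the uniconazole effect in pkl minus that in wild type (log2, in bins 0.1 wide) as percent of the 121 genes (red) and of all 22746 probe sets tested (grey). Dashed lines mark the medians, 0.27 for the 121 genes and 0.02 for all probe sets.

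Single genes spread widely around this median. The 5 genes with the largest and the 4 with the lowest differences were picked after the values were seen. AT5G44360 had the largest difference, 1.29 ± 0.49, followed by AT4G26010 with 1.27 ± 0.64, AT1G44970 with 1.18 ± 0.38, AT2G30930 with 1.01 ± 0.39 and AT4G33980 with 0.91 ± 0.35 (log2, SE, limma adjusted p = 0.478, 0.664, 0.346, 0.478 and 0.48). For AT1G44970 the mean in pkl with solvent, 48.5, was under the bacterial control level, so its difference depends on the offset and its place in this order is not settled. The solvent means of AT5G44360, 60.2 in pkl and 59.4 in wild type, lay just above that level. Its pkl arrays with solvent went down to 5.2, so its place is not settled either. The same holds for AT4G33980, with solvent means of 58.1 in pkl and 60.5 in wild type and pkl arrays down to 13.4. For AT5G44360 all 6 pkl arrays with uniconazole, between 196 and 296, exceeded all wild-type arrays with uniconazole, between 69.2 and 157. At the other end were AT1G60630 with -0.47 ± 0.19, AT5G43910 with -0.44 ± 0.27, AT4G28550 with -0.43 ± 0.47 and AT5G25210 with -0.41 ± 0.17 (limma adjusted p = 0.509, 0.755, 0.894 and 0.543). In AT5G25210 the lowest, median and highest signals were 202, 214 and 243 in pkl with uniconazole and 119, 150 and 161 in pkl with solvent. In wild type the gene had 184, 214 and 226 with uniconazole and 80.2, 102 and 122 with solvent. Its uniconazole groups overlapped, and 5 of the 9 genes just named stayed under a signal of 300 in every group mean.

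For comparison, 2 other sets were formed with the mirrored or the same limits. The 75 locus-only genes lowered by uniconazole had a median uniconazole effect of -1.05 in pkl and -0.86 in wild type, with a median difference of -0.18, and 17 of them above 0. The 26 genes with a symbol that were raised by uniconazole had median effects of 1.04 in pkl and 0.89 in wild type, a median difference of 0.21, and 19 of them above 0. The 121 genes were not tested against these sets, so nothing here is particular to them.

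The mean of the mutant's effects in both media was small, as the rule required. This mean was above 0 in 95 genes and at or below 0 in 26. The effect in 1 medium could be larger, from -0.44 to 1.02 with uniconazole and from -0.74 to 0.55 with solvent (log2). With uniconazole the pkl effect of the 121 genes had a median of 0.27, and 30 genes were called higher and 2 lower in pkl, where 18.6% of all probe sets were called. In 17 genes each of the 6 pkl arrays exceeded each of the 6 wild-type arrays, which holds for 4.95% of all probe sets. With solvent the median was 0.00, and 11 genes were called higher and 7 lower, where 11.7% of all probe sets were called. The rule used these contrasts too, and the counts are a description. The difference between the media is the same contrast as that between the uniconazole effects, in which AT1G13930 alone passed. The highest of the 4 group means was that of pkl with uniconazole in 99 genes and that of wild type with uniconazole in 22.

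Array by array, the mean log2(signal + 16) of the 121 genes lay between 9.37 and 9.49 in pkl with uniconazole, between 8.18 and 8.32 in pkl with solvent, between 9.07 and 9.23 in wild type with uniconazole and between 8.19 and 8.35 in wild type with solvent. All pkl arrays with uniconazole stood above all wild-type arrays with uniconazole, and the solvent arrays of the genotypes overlapped. The lowest wild-type array with uniconazole, replicate 2 at 9.07, also had the lowest median signal of all arrays, 310.2. Its log2 ratios of 3′ to 5′ control probe sets, a measure of RNA integrity, were the highest of its group, 0.45 for GAPDH, 0.58 for actin and 1.03 for ubiquitin. Without this array the median difference between the uniconazole effects was 0.25, against 0.27 with it, and AT1G13930 was again the 1 gene called.

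**Figure D4:**
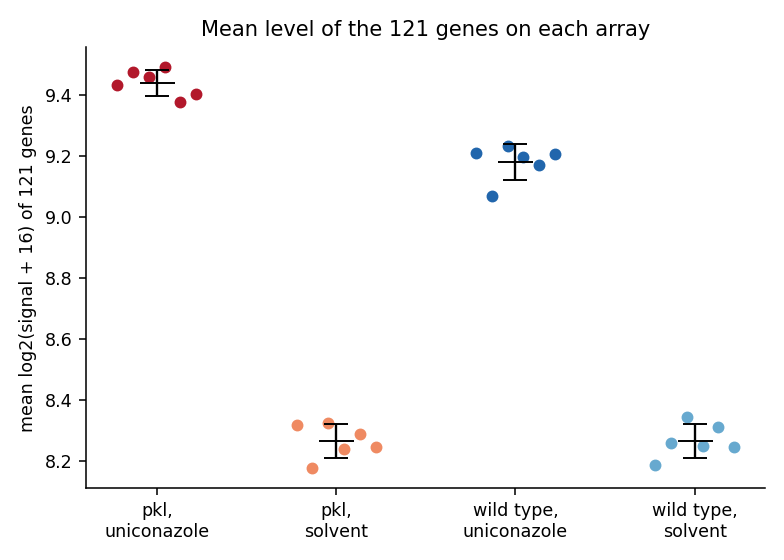
Mean log2(signal + 16) of the 121 genes on each array, with the group mean and SD (n = 6) for pkl with uniconazole, pkl with solvent, wild type with uniconazole and wild type with solvent. The 6 arrays of pkl with uniconazole lie between 9.37 and 9.49 and the 6 of wild type with uniconazole between 9.07 and 9.23, while both solvent groups lie between 8.18 and 8.35.

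The 121 genes did not vary as one block among arrays of the same group. The median correlation between pairs of them, over deviations from the group means on 24 arrays, was 0.008. It was 0.018 among the 7837 locus-only genes whose highest group mean reached 110. The 7837 include the 121 genes and were not matched to them in level. These correlations are descriptions, since all genes share the arrays. Spread within groups ran from 0.08 to 0.89 (SD, log2), with a median of 0.26. A few genes nevertheless moved together. The probe sets of AT4G08410, AT5G06630 and AT1G23720, which are of a type that may read related transcripts, correlated at 0.90 to 0.93, so they may not be 3 independent measurements.

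AT4G26010 had the largest spread within groups of the 121 genes. It had 1824, 3583 and 8191 in pkl with uniconazole (lowest, median, highest), against 213, 859 and 1890 in pkl with solvent. In wild type it had 675, 1846 and 4912 with uniconazole and 617, 802 and 1473 with solvent. The groups overlapped in both genotypes, with 5 of 6 uniconazole arrays above all solvent arrays in pkl and 4 of 6 in wild type. AT4G08410 averaged 1470 ± 431 in pkl with uniconazole against 492 ± 210 with solvent, and 1000 ± 420 in wild type with uniconazole against 470 ± 127 with solvent. Its variation from array to array followed that of EXPA7 and EXPA18, expansin genes expressed in root hair cells.

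Over the deviations from group means on 24 arrays, the correlation of AT4G08410 with the mean of EXPA7 and EXPA18 was 0.94 (Pearson) and 0.92 (Spearman; permutation within groups, p = 1e-05 for each, the smallest that 100000 permutations can give; adjusted p = 8.07e-04 over 242 relations for the Pearson value). Without the 2 arrays farthest from the median of the expansin measure it was 0.93. In all, 12 of the 121 genes correlated positively with these expansins at an adjusted p under 0.05 and 11 negatively. The 12 include AT4G08410, AT5G06630 and AT1G23720, whose probe sets may read related transcripts. The share of the 7837 locus-only genes at that threshold was not computed, so nothing is read from these counts. The median correlation was 0.014 over the 121 genes and 0.006 over the 7837. A correlation of at least 0.7 was found in 7 genes, AT4G08410, AT4G26010, AT1G23720, AT5G06630, AT1G62660, AT2G30930 and AT5G03640, which is 5.79% of the 121 genes and compares with 1.63% of the 7837. Without the 2 farthest arrays 6 of the 7 stayed above 0.7, and AT5G03640 had 0.61. This comparison was chosen after the values had been seen.

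OLEO3, which encodes an oleosin, a coat protein of seed oil bodies, ran the other way. Its deviations correlated at -0.67 with those of the expansins. AT5G42290 correlated with OLEO3 at 0.79 (Pearson) and 0.82 (Spearman; permutation within groups, p = 1.3e-04 and 2e-05; adjusted p = 0.00262 over 242 relations for the Pearson value), and at 0.66 without the 2 farthest arrays. Of the 121 genes, 10 correlated positively with OLEO3 at an adjusted p under 0.05, among them the bright AT1G04560 (0.76) and AT3G15670 (0.67), and 10 negatively. For these counts too, the share of the 7837 at that threshold was not computed, and nothing is read from them. A correlation of at least 0.7 was found in 2 genes, 1.65% of the 121 genes, against 0.472% of the 7837. Because the markers run against each other on the same arrays, genes that follow one tend to run against the other, and nothing is read from that. AT1G13930 stood near 0 with both, at 0.01 for the expansins and -0.08 for OLEO3.

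**Figure D5:**
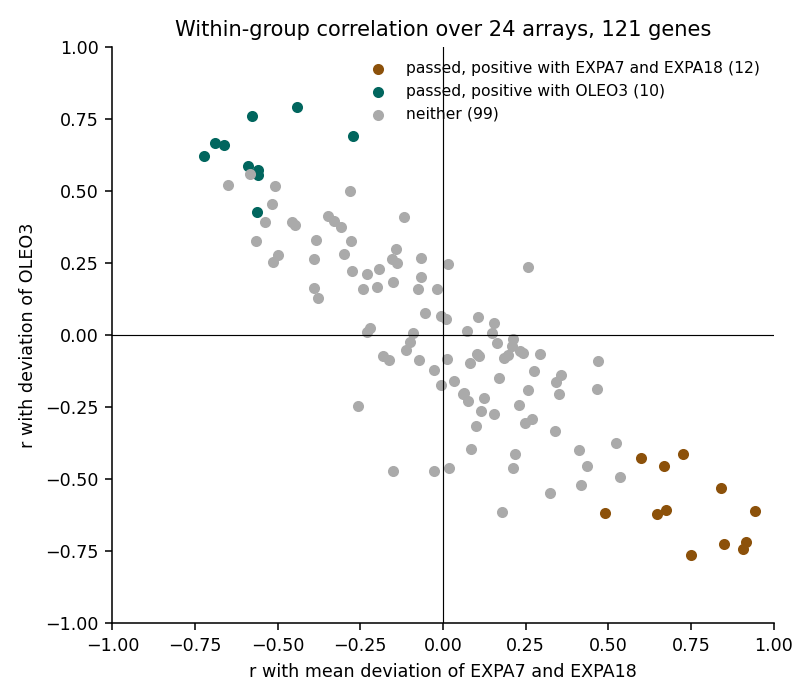
Pearson correlation of each of the 121 genes with the mean of EXPA7 and EXPA18 (horizontal axis) and with OLEO3 (vertical axis), over deviations from the group means on 24 arrays. Brown points are the 12 genes positive with the expansins, green points the 10 positive with OLEO3, both at an adjusted p under 0.05 over 242 relations, and grey points the other 99. Since the markers correlate at -0.67 with each other, the slope of the cloud follows from the choice of axes.

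Some of the markers themselves differed between the groups. The summed signal of EXPA7 and EXPA18, both of the 2 root hair genes listed, ran from 1992 to 4854 in pkl with uniconazole, from 652 to 1917 in pkl with solvent, from 769.6 to 2328 in wild type with uniconazole, against from 529.6 to 1122 in wild type with solvent. OLEO3 averaged 4667 ± 286 in pkl with uniconazole, 1384 ± 208 in pkl with solvent, 3827 ± 439.9 in wild type with uniconazole, against 2068 ± 327 in wild type with solvent, and its uniconazole effect was larger in pkl by 0.86 ± 0.14 (log2, SE; limma adjusted p = 0.00371). PAP85, a seed storage protein gene of the vicilin type, averaged 2428 ± 387 in pkl with uniconazole against 1000 ± 168 with solvent, and 304 ± 75.8 in wild type with uniconazole against 167 ± 30.2 with solvent. Of the 10 seed reserve and maturation genes listed, 4 were measured. Their summed signal, most of it from ICL, ran from 39769 to 47141 in pkl with uniconazole, from 36471 to 43669 in pkl with solvent, from 37357 to 50353 in wild type with uniconazole and from 37212 to 47640 in wild type with solvent, so all groups overlapped. Without ICL, the summed signal of OLEO3, PAP85 and LEA25 ran from 6798 to 8138 in pkl with uniconazole, from 2082 to 2971 in pkl with solvent, from 3757 to 5112 in wild type with uniconazole, against from 1872 to 2786 in wild type with solvent. The expansins, OLEO3 and PAP85 had their highest group mean in pkl with uniconazole. EXPA18 passed for uniconazole in pkl and in wild type (limma adjusted p = 6.22e-04 and 0.0189), EXPA7 in neither (0.0698 and 0.333). ICL also passed in neither (0.984 and 0.632), so no order is read from its group means. The part of root hair cells or of remaining maturation transcripts in the levels of the 121 genes was not tested. The difference between the uniconazole effects had a median of 0.64 in the 12 genes that followed the expansins and 0.44 in the 10 that followed OLEO3. In the other 99 it was 0.22, with 71 above 0. These groups were formed from the same arrays, and genes that vary together on them are not separate measurements. AT1G13930, the only gene that passed the test of this difference, was in neither group of followers. The medians were not tested against each other, and nothing is read from them.

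All 121 were protein-coding genes in the assembly TAIR10.1, with a median gene length of 2123 bases, against 2092.5 bases for the locus-only genes from which they were taken. They lay on all 5 chromosomes. Chromosome 4 held 23 of them, 19.0% against 14.2% of the locus-only genes, and chromosome 3 held 19, 15.7% against 20.4%, with no test made. Among them 1 pair lay within 5 genes of each other, AT4G25980 and AT4G26010, with 2 coding genes between them, and their deviations within groups correlated at 0.21.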

How the data were processed

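The authors deposited linear signal intensities for 22810 probe sets on 24 ATH1 arrays, made with MAS5 per the submitters' processing notes, with version and settings not given in the sources used here. The mean of each deposited intensity column after trimming 2% at each end was 1000.1, so arrays had been scaled to a common level. The number of arrays limits the precision, and labels put 6 arrays in each of 4 groups. After removal of 64 control probe sets, 22746 were tested, of which GEO's platform annotation paired 13513 with 1 gene, 503 with several and 8730 with none that is listed. Names were updated through RefSeq's table for TAIR10.1, which held 13436 of the 13513. Of 11933 probe sets with a locus code only, 3 were left out by the rule.

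Log2(signal + 16) was fitted in R 4.3.3 with limma 3.58.1 (lmFit, eBayes with a variance trend, all 4 groups in one fit), with two-sided p-values adjusted by Benjamini-Hochberg over all probe sets. The offset understates fold changes of dim probe sets. The 121 genes, the gene lists and the tests were chosen with earlier results of these data known. Genes described singly were the 12 with the largest mean uniconazole effect, those past the threshold in the difference between uniconazole effects and those nearest the limits of the rule. Others named, among them the genes with a family name in RefSeq, were chosen after their values were seen. Within-group correlations used deviations of log2 values from group means and 100000 permutations within groups (Python 3.11.15). Alternatives were other offsets, median scaling, quantile normalization, a filter on low signal, no variance trend, array weights, replicate number, RNA integrity covariates and leaving out each array. The script was tested on simulated data. Gene lengths, chromosomes and neighbours come from the TAIR10.1 table, and no coordinates are printed because the deposited table names no build. Promoter and protein sequences and protein descriptions were not used here, so planned searches for motifs and groups by protein family were not made.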

Additional observations from a re-analysis of the deposited data

Results flagged for a closer look

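In 52 sets of 6 arrays, 13 measures in 4 groups, 1 extreme array was set against its neighbours by Dixon's test at the 95% level. The gap over range was taken on log2(signal + 16), which widens gaps at low signal, while the signals given here are linear. The flags therefore depend on that scale. About 1 in 20 sets passes by chance, and 3 passed here. AT5G36160 in wild type with solvent had 28.3 in replicate 5, against 162 to 236 in the other 5 arrays (gap over range 0.80). AT1G09500 in pkl with uniconazole had 55.9 in replicate 3, against 132 to 179 in the others (0.72). AT4G26950 in pkl with solvent had 4.7 in replicate 3, against 31.1 to 56.3 in the others (0.66). All 3 arrays were lower than the rest of their group, and in AT4G26950 nearly all values of the group lay under the bacterial control level.

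The uniconazole effect on AT1G13930 was larger in pkl than in wild type by 0.62 (log2; limma adjusted p = 0.00211), by a test of the difference itself. All 6 pkl arrays with uniconazole lay above all 6 wild-type arrays with uniconazole.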

How the results depend on the processing

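In the 33 alternative settings, AT1G13930 was the 1 gene of the 121 called in the difference between uniconazole effects. The median difference lay between 0.24 and 0.31, and between 0.25 and 0.31 when 1 array was left out. Both solvent means of AT1G61930 lay under the bacterial control level, so no direction is read from its difference, which was 0.07 in the fit as reported, -0.0101 with an offset of 64 and -0.0925 with quantile normalization, and which ran from -0.11 to 0.28 when 1 array was left out. The cause was not tested. With an offset of 64 the median uniconazole effect was 0.94 in pkl and 0.72 in wild type, as a larger offset shrinks log2 differences. With median scaling it was 1.04 in pkl, and the median pkl effect with uniconazole was 0.18 in place of 0.27. The rule held for 94 probe sets with an offset of 64 and for 132 with an offset of 1. Without a variance trend, 20 probe sets in all were called in the difference between effects, against 32. With 1 array left out the number lay between 15 and 39. Deviations of samples with the same replicate number correlated weakly, from -0.09 to 0.18 with a median of 0.04. Of 36 pairs, 7 correlated above 0.1, and 10 correlated best with their own number, among 6 candidates each. Whether samples of the same number shared a source of variation was not tested. With the replicate number as a block, 33 probe sets were called, 1 of them among the 121 genes, with an adjusted p of 0.00366 in limma for AT1G13930. Detection calls were not used here, and values under the bacterial control level have no order.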
